A study of Mus musculus with 41 samples.

Results

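The genes described here belong to the motile cilium and to the ependymal cells that carry it along the brain ventricles. They were chosen by symbol: names beginning with Cfap, Dnah, Dnai, Drc, Rsph, Spef or Tekt and followed by a digit, with Foxj1, Enkur, Rarres2 and Crocc added. This gave 55 genes of the 18194 that had 1 symbol on the array, each read from its brightest probe set out of 85. By role they were 1 transcription factor, 5 outer arm and 5 inner arm dynein heavy chains, 6 radial spoke genes, 2 genes of the nexin-dynein regulatory complex, 5 tektins, 3 Spef genes, 25 Cfap genes, Enkur, Crocc and Rarres2. No measured gene carried a Dnai symbol.

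RNA came from the hippocampi of 41 male C57BL/6J mice, an inbred strain, hybridised to 1 array per mouse. The mice carried no engineered allele that the labels name and all went through the same behavioural battery from 10 weeks of age, with the last memory test at 37 to 38 weeks and RNA taken 1 month later. Results of 5 memory tests fed 2 ranking systems, which placed 5 mice consistently as high, 12 as medium and 8 as low in general cognitive ability, while 14 ranked inconsistently and 2 had incomplete data. The label of the second inconsistent mouse also calls it medium. With it among the medium mice, high minus medium for Crocc was -0.48 (limma adjusted p 0.0234). Crocc was the 1 member called in the main fit of that comparison, a call that several alternatives given below did not keep. The study asked which genes differ with cognitive rank among mice of 1 genotype, so high was compared with low, high with medium and medium with low.

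A motile cilium is built on an axoneme, a ring of doublet microtubules around a central pair. Outer and inner dynein arms slide the doublets, radial spokes and the nexin-dynein regulatory complex control that sliding, and tektins and several Cfap proteins line the inside of the doublets. In the brain, ependymal cells carry motile cilia and move cerebrospinal fluid, and choroid plexus epithelium also carries cilia. Both tissues border the hippocampus, whereas hippocampal neurons and astrocytes bear a single primary cilium without this motor apparatus. Foxj1 is the transcription factor that switches on the motile cilium genes, and RFX factors bind promoters of motile and primary cilium genes alike.

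The promoters of these genes are shown because a short word that RFX factors are known to bind was common among them. The word was searched as GTTGCCA or GTTGCTA on both strands, from 250 bases before to 50 bases after the start of transcription, in RefSeq promoters of build GRCm38.p6. It was chosen after other words had been searched in the same promoters. Of 45 members with a promoter in that table, 24 held it (53.3%), against 2370 of 27025 genes (8.77%). The shares in related gene lists were 49.0% of 49 axonemal genes outside the naming rule, 41.7% of 24 intraflagellar transport genes, 21.9% of 32 primary cilium genes and 9.52% of 21 choroid plexus genes. Of 29 such words in the members' promoters, 22 (75.9%) began within 100 bases before the start, against 44.8% of 2656 words over all genes. The longer palindromic X-box, which can contain the shorter word, stood in 2 of 45 members (4.44%) and 0.529% of all genes. Its share was higher in 2 related lists, at 12.5% of the primary cilium genes and 6.12% of the axonemal genes outside the naming rule. It was 4.17% of the intraflagellar transport genes and 0% of the choroid plexus genes. The forkhead word TGTTTAC stood in 4 of 45 members (8.89%) and 4.05% of all genes. A match describes the letters of a window and shows no binding.

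The windows below run from 100 bases before to 50 bases after the start of transcription, 5′ to 3′ on the strand of the gene, with the RFX word in capitals in either orientation. Crocc is shown as the member that passed the test of high against medium, and Tekt1, Cfap126 and Rsph9 as members that varied with Foxj1. Drc1 is shown as one of the pair with the lowest correlation, and Drc3, Cfap161 and Enkur for their words close to the start.
Crocc (chr4:141060496-141060645, minus strand): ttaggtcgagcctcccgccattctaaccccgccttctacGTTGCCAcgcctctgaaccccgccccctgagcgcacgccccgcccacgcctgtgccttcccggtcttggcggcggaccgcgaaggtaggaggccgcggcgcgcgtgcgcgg
Tekt1 (chr11:72361833-72361982, minus strand): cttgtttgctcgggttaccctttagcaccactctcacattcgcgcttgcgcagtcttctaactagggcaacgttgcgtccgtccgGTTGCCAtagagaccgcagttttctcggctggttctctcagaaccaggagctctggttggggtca
Drc3 (chr11:60353280-60353429, plus strand): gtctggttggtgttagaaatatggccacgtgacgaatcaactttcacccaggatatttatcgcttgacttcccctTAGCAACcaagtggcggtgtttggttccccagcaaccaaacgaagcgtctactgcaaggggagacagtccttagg
Cfap161 (chr7:83794790-83794939, minus strand): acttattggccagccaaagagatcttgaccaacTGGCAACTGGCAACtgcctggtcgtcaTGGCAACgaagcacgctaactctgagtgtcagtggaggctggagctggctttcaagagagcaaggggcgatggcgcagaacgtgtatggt
Enkur (chr2:21205316-21205465, minus strand): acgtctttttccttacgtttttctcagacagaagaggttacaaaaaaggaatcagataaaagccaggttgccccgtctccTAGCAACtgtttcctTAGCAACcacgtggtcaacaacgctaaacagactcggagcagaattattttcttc
Drc1 (chr5:30281293-30281442, plus strand): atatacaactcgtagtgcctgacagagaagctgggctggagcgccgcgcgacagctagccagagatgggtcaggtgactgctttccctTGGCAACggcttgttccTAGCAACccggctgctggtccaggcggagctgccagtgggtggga
Cfap126 (chr1:171113886-171114035, plus strand): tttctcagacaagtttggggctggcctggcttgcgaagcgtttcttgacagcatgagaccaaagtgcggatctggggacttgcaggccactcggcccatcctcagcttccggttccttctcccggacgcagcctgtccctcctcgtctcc
Rsph9 (chr17:46144151-46144300, minus strand): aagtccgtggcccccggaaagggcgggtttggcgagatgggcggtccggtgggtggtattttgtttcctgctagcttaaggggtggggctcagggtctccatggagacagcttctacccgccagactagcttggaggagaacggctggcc
The word began 61 bases before the start in Crocc, 15 bases before it in Tekt1 and 25 bases before it in Drc3. Cfap161 held it at 67, 60 and 40 bases before the start, the first 2 directly side by side. Enkur held it at 20 and 5 bases before the start, and Drc1 at 12 bases before and again 5 bases after it. Cfap126 and Rsph9, which varied closely with Foxj1, held none in these windows or in the longer ones searched. Crocc and Tekt1 each had a second listed promoter without the word.

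Levels are log2(normalised intensity + 16), and because probe sets differ in brightness for the same amount of RNA, levels are compared between arrays and never between genes. Median deposited intensities ran from 26.0 to 47.0 in high, 29.6 to 53.4 in medium and 22.4 to 47.2 in low arrays, so brightness overlapped between the groups before normalisation. The array of medium mouse 9 stood apart. Its mean over 15 hippocampal neuron markers was 8.10, below the 9.06 to 9.38 of the other 40 arrays, and its mean over 12 striatal markers was 8.40, above their 7.25 to 7.57, which goes against its hippocampus label. It held the lowest value of the 41 arrays for Cfap36, Cfap161, Dnah9 and Rarres2 and the highest for Cfap20dc, Crocc, Drc1, Spef1 and Tekt5.

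Of the 55 members, 23 were bright enough to enter the test, which took the 22519 of 45037 probe sets at or above the median brightness. They were Cfap20, Cfap20dc, Cfap36, Cfap54, Cfap69, Cfap97, Cfap126, Cfap298, Cfap300, Cfap410, Crocc, Dnah1, Dnah9, Drc1, Drc3, Enkur, Rarres2, Rsph1, Rsph3a, Rsph4a, Rsph9, Spef1 and Tekt5. The label of the set was borne out only in part: Foxj1 itself, 4 of the 5 tektins and 8 of the 10 dynein heavy chains lay below that limit, many with levels near the floor of 4 that the added 16 sets. Of 32 ependymal genes measured, among them the members Rsph1 and Tekt1, 21 entered the test and the others lay below the same limit. Means over the arrays were 6.45 for Ccdc153, 6.66 for Tmem212 and 6.10 for Mia. Among the members that varied least were Cfap20, a doublet protein, with an SD of 0.07 over the 41 arrays, Cfap97, with 0.10, and Cfap36, a protein that binds the ciliary GTPase Arl3, with 0.11. The widest spread was that of Cfap61, a protein at the base of the radial spokes, with an SD of 0.64 and a range of 4.33 to 7.53.

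**Figure D1:**
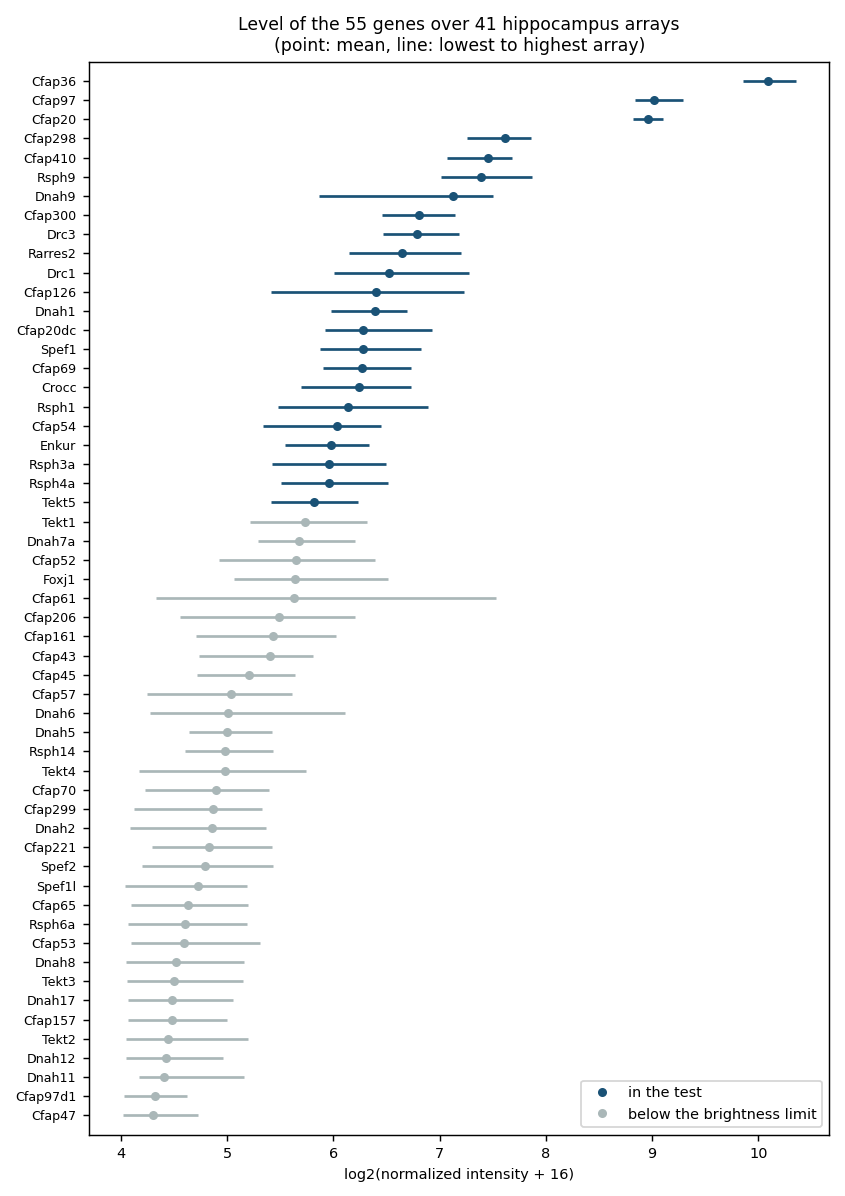
Mean (point) and lowest to highest value (line) of each of the 55 genes over the 41 arrays, on the scale log2(normalised intensity + 16), with the 23 tested genes in dark blue and the others in grey. Cfap36, Cfap97 and Cfap20 have short lines, and Cfap61 has the longest, from 4.33 to 7.53.

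The rootlet gene Crocc was the member that passed in a comparison of ranked groups, and it did so only in high against medium. The F test for any difference among the 3 groups did not call it. Crocc encodes rootletin, the filament protein of the ciliary rootlet, which anchors primary as well as motile cilia below the basal body. Its levels in the 5 high arrays were 6.00, 5.79, 5.94, 6.13 and 5.93. In the 12 medium arrays the lowest was 6.10, the median 6.44 and the highest 6.73, and in the 8 low arrays they were 6.03, 6.28 and 6.45. All high arrays but high 4 lay below every medium and low array, and high 4 lay above 1 medium and 2 low arrays, so that the groups overlapped. High minus medium was -0.47 ± 0.08 (SE), a 1.38-fold lower level in high mice, with a 95% interval of -0.64 to -0.29 and a limma p of 0.0280 adjusted over all tested probe sets. Crocc has 1 probe set on the array, so no other probe checks this value.

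The call for Crocc was close to the threshold. Without medium 9, which had the highest Crocc level, the difference was -0.44 with an adjusted p of 0.0376. It was -0.47 with an adjusted p of 0.0754 when arrays were blocked by the pattern of their spike-in control probe sets. Within the largest pattern, with 4 high, 5 medium and 4 low mice, it was -0.48 (adjusted p 0.312). It was -0.42 in the pattern that held 1 high and 5 medium mice, where the single high mouse is assumed to vary like the others and a call is hardly possible (adjusted p 0.956), and the remaining pattern held no high mouse. The difference lost its call, at adjusted p from 0.0511 to 0.133, when any of the 5 high mice or any of medium mice 1, 4, 7, 8, 10 and 11 was left out.

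In the same fit Crocc differed by -0.30 ± 0.09 between high and low mice and by 0.17 ± 0.07 between medium and low mice. Neither passed, with limma p of 0.00269 and 0.0307 before adjustment and 0.490 and 0.998 after it. The comparisons share their arrays and are not independent of each other. Outside the ranked groups, Crocc was at 5.69, 6.31 and 6.56 (lowest, median, highest) in the 14 inconsistent mice, a wider range than in any ranked group, and at 5.88 and 6.04 in the 2 with incomplete data.

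**Figure D2:**
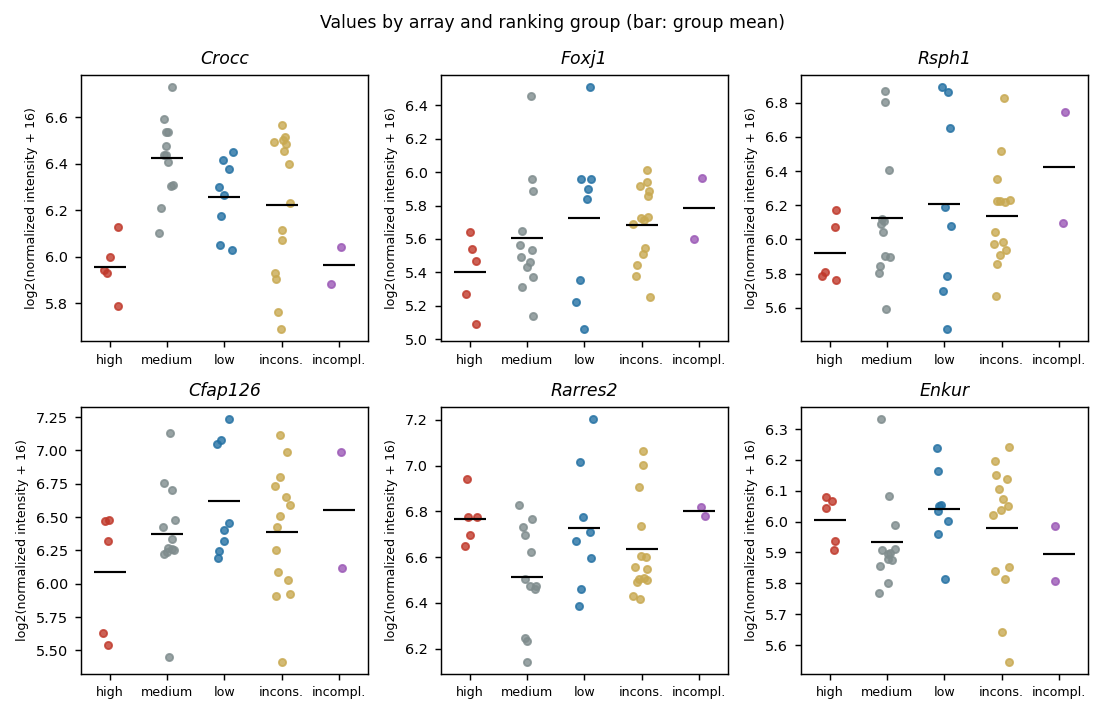
Levels of 6 genes, as log2(normalised intensity + 16), in each array (point) by ranking group, with the group mean as a bar. For Crocc the high arrays lie between 5.79 and 6.13 and the medium arrays between 6.10 and 6.73, while for Foxj1, Rsph1, Cfap126, Rarres2 and Enkur the ranked groups overlap broadly.

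Across the tested members, no other gene passed in any comparison. In high against low, 0 of 23 members passed in limma, where 0.00888% of all tested probe sets did. At an unadjusted p under 0.05 there were 2 members (8.70%), Crocc and Cfap126, close to the 8.16% of all probe sets. High minus low was below 0 for 18 of the 23, against 47.9% of all probe sets, with a median of -0.05 in the members and 0.01 over all. In high against medium, Crocc was the 1 member of 23 that passed, against 0.0311% of all probe sets, and 2 members reached an unadjusted p under 0.05, Crocc and Rarres2, against 13.2% of all. Here 17 members were below 0, against 48.1%, with medians of -0.06 and 0.01. In medium against low, 0 members passed, as did 0% of all probe sets, and 3 members, Crocc, Dnah1 and Rarres2, reached an unadjusted p under 0.05 against 3.10% of all. Of the 23, 15 were below 0, against 50.1%, with medians of -0.02 and -0.00. The F test for any difference among the 3 groups called 0 members and 0.00888% of all probe sets, and its lowest adjusted p among members was 0.114, for Crocc. Several members vary together, as described below, so the counts below 0 are not counts of independent genes.

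**Figure D3:**
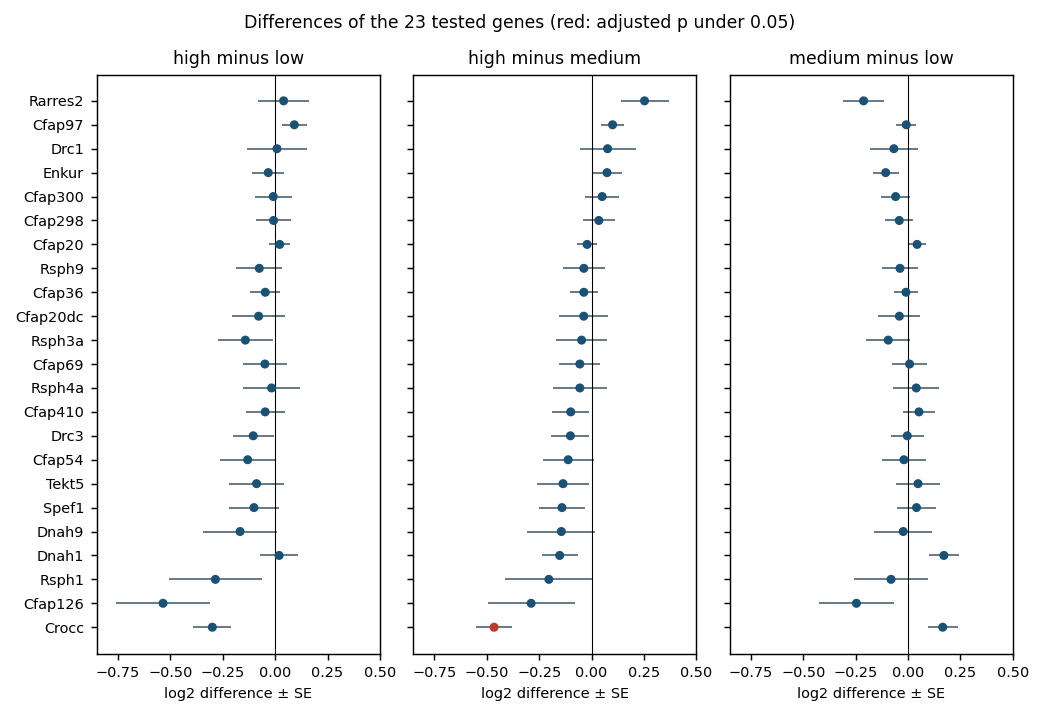
Log2 difference ± SE of the 23 tested genes in high minus low, high minus medium and medium minus low mice, with an adjusted p under 0.05 in red. Crocc at -0.47 in high minus medium is the red point, Cfap126 lies at -0.53 in high minus low, and most other genes lie within 0.2 of 0.

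Choroid plexus markers moved in the same direction as these small differences. All 13 tested choroid plexus genes were below 0 in each of the 3 comparisons, with medians of -1.03 in high minus low, -0.76 in high minus medium and -0.15 in medium minus low, and 0 passed. Their mean ran from 6.16 to 6.70 in the high, 6.29 to 9.34 in the medium and 5.97 to 9.40 in the low arrays. The medians of that mean were 6.56, 6.64 and 7.07. Low 1, low 6, low 7, medium 2, medium 5, medium 6 and medium 11 lay at 8.20 or above, and all other ranked arrays at 7.12 or below. These genes share their arrays, so the 13 below 0 are not independent of each other. Of 27 choroid plexus genes measured, the other 14 lay below the brightness limit. Ttr, transthyretin, which choroid plexus epithelium makes in large amounts, was at 7.72 or higher on every array. In whole tissue, fewer cells of a type and less RNA per cell cannot be told apart. With the choroid plexus mean as a covariate, high minus medium for Crocc was -0.47, with an adjusted p of 0.0505, and high minus low for Cfap126 was -0.27 against -0.53 without it. High minus low turned to 0.04 for Rsph1, against -0.29 without the covariate, and to 0.07 for Rsph9, against -0.08, and it was -0.08 for Foxj1, against -0.33. Other members moved away from 0 in that contrast, among them Rsph4a, from -0.02 to 0.15, Rarres2, from 0.04 to 0.14, and the dim Tekt1, from -0.01 to 0.17. With the covariate 13 of the 23 members were below 0 in high minus low, against 18 without it. The counts were 13 against 17 in high minus medium and 14 against 15 in medium minus low. No high array lay above 6.70 on the choroid plexus mean, so among ranked arrays only medium and low ones covered its upper range. The part of choroid plexus tissue in the members' differences was not tested.

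Foxj1 was at 5.47, 5.54, 5.27, 5.09 and 5.64 in the high arrays. The lowest, median and highest were 5.14, 5.51 and 6.46 in the medium, 5.06, 5.87 and 6.51 in the low, and 5.25, 5.72 and 6.01 in the inconsistent arrays, and the 2 incomplete arrays lay at 5.60 and 5.97. The high arrays thus sat in the lower part of a range that the medium and low arrays spanned. By group mean the order was incomplete (5.78 ± 0.26, SD), low (5.73 ± 0.48), inconsistent (5.69 ± 0.23), medium (5.61 ± 0.35) and high (5.40 ± 0.22), and neighbours in that order differed by less than their SDs. High minus low was -0.33 ± 0.20 (SE) and high minus medium -0.20 ± 0.19, and in the limma fit without the brightness limit neither passed, with adjusted p of 0.776 and 0.768. Of 14 regulators of motile cilia measured, 7 were tested and 0 passed, among them Rfx3, at 0.15 in high minus low, and Rfx1, at -0.21.

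The radial spoke genes had no difference that passed. Rsph1, Rsph4a and Rsph9 encode proteins of the spoke head, and Rsph3a one of the spoke stalk. Rsph1 was at 6.07, 5.81, 5.76, 5.79 and 6.17 in the high arrays, with 5.59, 6.07 and 6.87 (lowest, median, highest) in the medium and 5.48, 6.13 and 6.89 in the low arrays. High minus low was -0.29 ± 0.22 and did not pass, with a limma adjusted p of 0.775. Rsph9 had levels of 7.41, 7.42, 7.23, 7.27 and 7.37 in the high arrays, against 7.03 to 7.66 in the medium and 7.19 to 7.73 in the low arrays. Rsph4a was at 5.99, 6.01, 5.87, 5.64 and 6.16 in the high arrays, against 5.74 to 6.43 in the medium and 5.53 to 6.51 in the low arrays. In all 3 spoke head genes the high arrays fell inside the range of the other groups. Rsph3a differed by -0.14 ± 0.13 in high minus low, and the dim Rsph6a and Rsph14 by -0.11 and -0.03. A second probe set of Rsph3a, below the brightness limit, gave 0.25 in the same contrast.

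Cfap126, also called Flattop, helps to position basal bodies in multiciliated cells. It was at 6.32, 6.48, 5.54, 5.63 and 6.47 in the high arrays, with 5.45, 6.30 and 7.13 in the medium and 6.19, 6.43 and 7.23 in the low arrays. High 3 and high 4 lay below all low arrays and the other 3 high arrays lay among them. High minus low was -0.53 ± 0.22, with a limma p of 0.0234 before adjustment and 0.559 after it.

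Among the motor genes, Dnah9, an outer arm heavy chain of ciliated epithelia, was at 7.09, 6.96, 6.79, 6.92 and 7.08 in the high arrays. Its lowest, median and highest levels were 5.86, 7.25 and 7.44 in the medium and 6.68, 7.18 and 7.36 in the low arrays. The low end of the medium group was medium 9 alone, and high minus medium was -0.14 ± 0.16 with it and -0.26 without it, at adjusted p of 0.734 and 0.228. Dnah1, an inner arm heavy chain, was at 6.46, 6.55, 6.13, 6.25 and 6.18 in the high arrays, with medians of 6.46 in the medium and 6.31 in the low arrays. Medium minus low was 0.17 ± 0.07 with a limma p of 0.0272 before adjustment and 0.998 after it. A second probe set of Dnah1, below the brightness limit, gave -0.06 and had a correlation of 0.08 with the brightest. The other 8 heavy chains, among them Dnah5, Dnah6, Dnah7a and Dnah12, were below the brightness limit, and their differences lay between -0.17 and 0.11 in high minus low.

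The 2 genes of the nexin-dynein regulatory complex, which links neighbouring doublets, showed no difference that passed. Drc1 was at 6.54, 6.90, 6.43, 6.45 and 6.44 in the high arrays, against 6.01 to 7.28 in the medium and 6.33 to 7.00 in the low arrays. Drc3 had a high minus low of -0.10 ± 0.10 and a high minus medium of -0.10 ± 0.09. Tekt5 differed by -0.09 ± 0.13 in high minus low. The dim Tekt4 stood higher in high mice, at 5.55, 4.95, 5.31, 5.21 and 5.52, with medians of 4.98 in the medium and 4.95 in the low arrays. Its high minus low of 0.37 ± 0.18 had an adjusted p of 0.699 in the fit without the brightness limit. Tekt1 lay at -0.01 in the same contrast. Spef1, a microtubule protein of the central pair, had a high minus low of -0.10 ± 0.12, and Enkur, enkurin, one of -0.03 ± 0.08.

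Rarres2 encodes chemerin, a secreted chemoattractant, and is no axonemal gene. It was at 6.70, 6.94, 6.78, 6.77 and 6.65 in the high arrays. In the medium arrays the lowest, median and highest were 6.14, 6.49 and 6.83, and in the low arrays 6.38, 6.69 and 7.20. High 2 lay above every medium array, the other high arrays lay in the upper part of the medium range, and all 5 lay inside the low range. High minus medium was 0.25 ± 0.11 (limma p 0.0362, adjusted 0.344) and medium minus low -0.21 ± 0.10 (p 0.0399, adjusted 0.998). The next brightest of its probe sets, also in the test, gave 0.01 and 0.11 for the same contrasts, and a dim one below the limit gave 0.28 and -0.17, so the tested probe sets disagreed and the dim one had the signs of the brightest. Cfap61 likewise had high minus medium of 0.82 and medium minus low of -0.72 in its brightest probe set, and -0.11 and 0.02, and -0.03 and 0.10, in its other probe sets. Over all members, 21 genes had several probe sets, and only 3 of the 30 additional probe sets reached a correlation of 0.5 with the brightest one across the arrays.

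Some members varied together from mouse to mouse, Foxj1 among them. Over the 41 arrays Foxj1 had Pearson correlations of 0.70 with Rsph1, 0.65 with Cfap206, 0.65 with Rsph9, 0.64 with Rsph4a, 0.63 with Cfap126 and 0.55 with Tekt1. These 6 were the members above 0.5, and the tightest pair of all was Rsph4a with Rsph9, at 0.76. Rsph1 and Rsph9 had correlations of 0.56 to 0.76 with the rest of these genes, and Cfap52, at 0.49 with Foxj1, had 0.57 to 0.70 with Rsph1, Rsph9, Rsph4a and Tekt1. Of the 1485 pairs of members 36 exceeded 0.5, and the median over all pairs was 0.05. Crocc, at -0.03, and Cfap20, at -0.24, were among the members that did not follow Foxj1. The lowest correlation was that of Dnah9 with Drc1, at -0.66, and it was -0.48 without medium 9. Among all 22519 tested probe sets 1.18% had a correlation over 0.5 with Foxj1, against 4 of the 23 tested members (17.4%). The same held for 25 of 27 choroid plexus genes and 10 of 60 axonemal genes outside the rule, all measured genes counted, tested or not. It also held for 12 of 32 measured ependymal genes, and these 12 include the members Rsph1 and Tekt1. The genes outside the rule most like Foxj1 over the 41 arrays were Elovl7 (0.74), Npc2 (0.74), Cd59a (0.73), Plpp2 (0.72) and Clic6 (0.72). The points of all these correlations share their arrays and the brightness and normalisation that go with them.

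**Figure D4:**
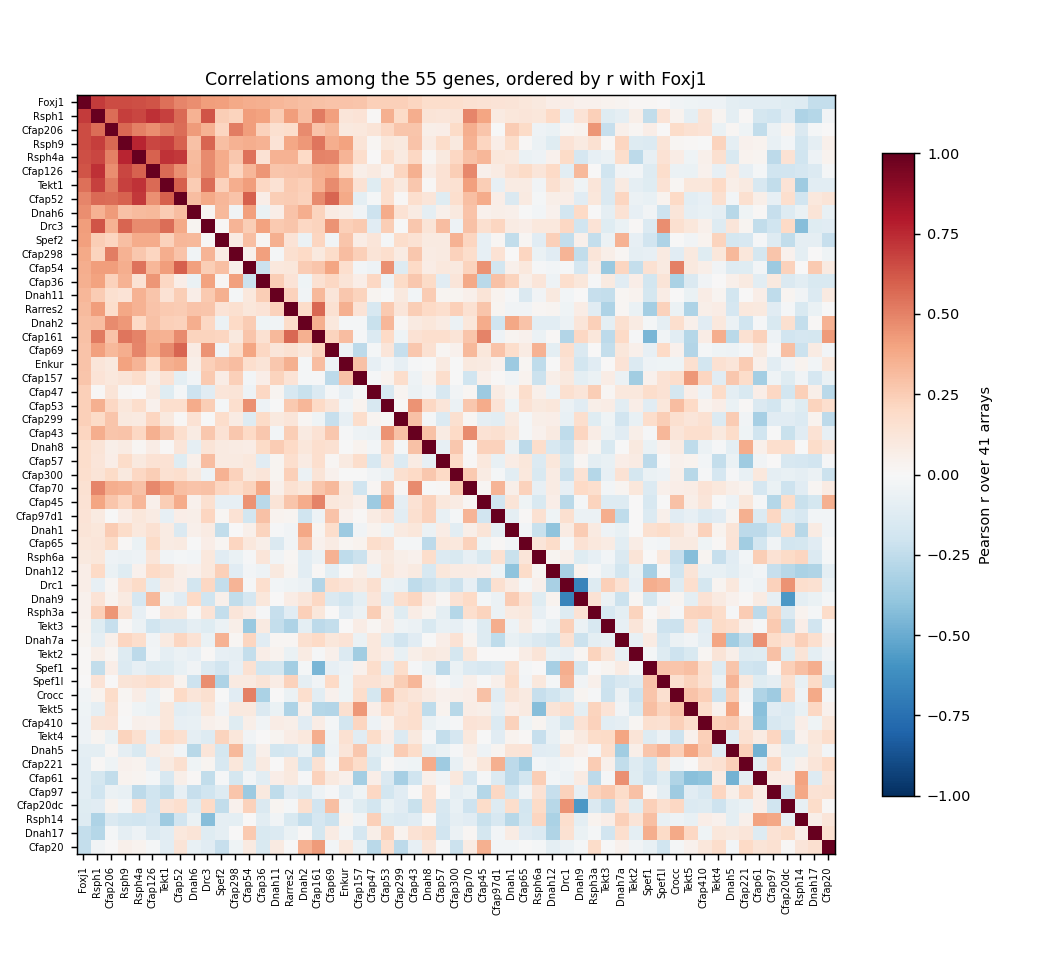
Pearson correlations of the 55 genes over the 41 arrays, with rows and columns in the order of their correlation with Foxj1 and the colour scale from -1 (blue) to 1 (red). The red block at the upper left holds Foxj1, Rsph1, Cfap206, Rsph9, Rsph4a, Cfap126 and Tekt1. Dnah9 with Drc1, at -0.66, is blue and lies beside the diagonal, below and to the right of the centre.

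Foxj1 followed the choroid plexus marker Ttr across mice. The correlation was 0.58 (permutation p 8e-05, 0.00064 after Benjamini-Hochberg adjustment over 8 pairs) and Spearman's rho was 0.56 (permutation p 0.00012, adjusted 0.00096), two-sided, n = 41. Without low 2 and medium 1, the arrays farthest from the median of Ttr, r was 0.53. Within the spike-in patterns of 8, 10 and 23 arrays it was 0.38, 0.46 and 0.82. The other 7 pairs did not pass. Rarres2, Enkur and Crocc had r of 0.22, 0.16 and 0.05 with Ttr (permutation p 0.158, 0.312 and 0.741). With Gfap, an astrocyte marker, r was 0.20 for Foxj1, 0.07 for Rarres2, 0.02 for Crocc and 0.24 for Enkur (permutation p 0.211, 0.661, 0.894 and 0.136). Rsph1 had r of 0.74 with Ttr and Cfap126 0.67, given as descriptions. Low 7, the array with the highest choroid plexus mean (9.40), also held the highest values of Foxj1, Rsph1, Rsph4a, Tekt1, Cfap206 and Cfap54. The arrays with the lowest choroid plexus means were low 5 (5.97), which held the lowest Rsph1 and Tekt1 but a Foxj1 of 5.84, above every high array, and low 2 (6.11), which held the lowest Foxj1. The part of choroid plexus tissue in these values was not tested.

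**Figure D5:**
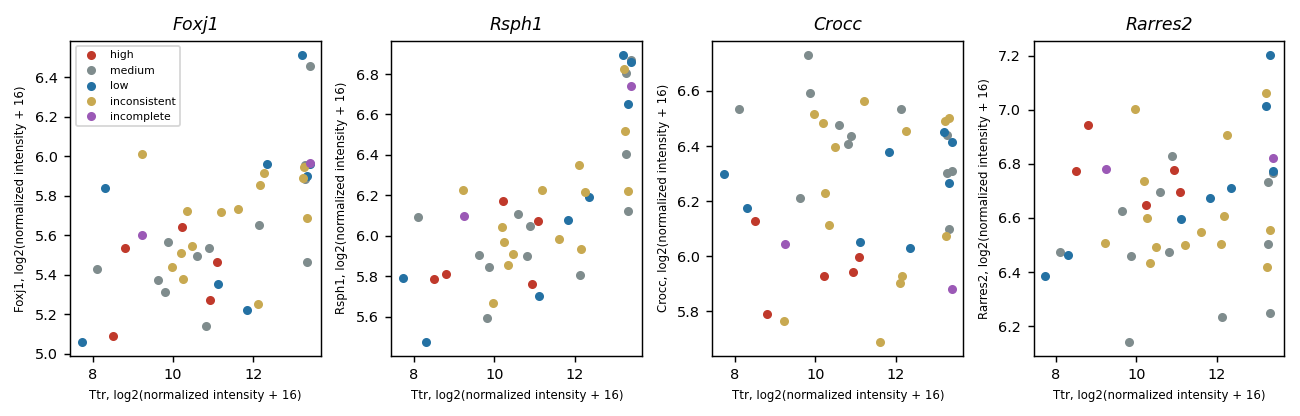
Foxj1, Rsph1, Crocc and Rarres2 against Ttr in the 41 arrays, both axes as log2(normalised intensity + 16), coloured by ranking group. Foxj1 (r 0.58) and Rsph1 (r 0.74) are highest where Ttr is near its ceiling of 13.4, where bright arrays share equal values, and Crocc (r 0.05) shows no such trend.

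The related gene lists had no member that passed in either direction in any of the 3 comparisons. Median high minus low was 0.00 for the 25 tested axonemal genes outside the rule, 0.02 for 7 dynein assembly factors, -0.01 for 29 intraflagellar transport genes, 0.01 for 31 primary cilium genes and -0.01 for 7 regulators of motile cilia. The axonemal genes outside the rule had a median of 0.05 in high minus medium, with 5 of 25 below 0, where 17 of the 23 members were below 0, and a median of -0.05 in medium minus low, with 18 of 25 below 0. The 21 tested ependymal genes, 15 of them below 0, had a median of -0.09, with Pltp at -0.39 and Acta2 at -0.37. They include the member Rsph1 and share Aqp4, Sox9, Vim and S100b with the list of neural stem cells and astrocytes. Calml4, at -1.03, also counts among the choroid plexus markers. Among lists of other cell types the median was -0.15 for meningeal fibroblasts, -0.12 for striatal markers, -0.04 for oligodendrocytes, -0.04 for endothelium, -0.01 for hippocampal neurons, 0.01 for neural stem cells and astrocytes and 0.05 for microglia, and 1 tested red blood cell gene was at 0.04. The intraflagellar transport and primary cilium lists had medians close to the 0.01 of all tested probe sets.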

How the data were processed

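The authors deposited 1 table of linear intensity values for 45101 probe sets, 64 of them controls, on 41 arrays. Per the submitters' processing notes, Partek and RMA were used; no source used here states how the deposited intensity was normalised, and array medians differed. Intensities were quantile-normalised over all probe sets and taken as log2(intensity + 16). Probe sets at or above the median mean were tested on the 25 ranked arrays with limma 3.58.1 in R 4.3.3 (lmFit, eBayes, 1 mean per group), with Benjamini-Hochberg adjustment over all 22519 and a threshold of 0.05; the code was tested on simulated data. Depth has no counterpart on arrays, and the number of mice limits the precision. Arrays were grouped by 45 spike-in control probe sets into 3 patterns, which are not labelled batches. Genes were named by rule: those past the threshold, Foxj1, Enkur, Rarres2 and Crocc, the 3 brightest and the extreme differences in each role, the 3 largest and smallest SDs, and the 5 genes most like Foxj1. Others, such as Cfap206, Cfap54, Cfap161, Rfx1 and Rfx3, were named after their values were seen. Promoter sequences are RefSeq's (GRCm38.p6). Members and lists were chosen with earlier results of these data known. Alternatives in filter, scale, offset, covariates and arrays were tried.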

Additional observations from a re-analysis of the deposited data

Results flagged for a closer look

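Of 62 sets of values from groups of 4 to 10 arrays, 2 held an array far from the others of its group, and chance alone is set to give about 1 in 20. Drc1 was at 6.904 on high 2, above the nearest high array at 6.541. Tekt4 was at 4.322 on low 8, below the nearest low array at 4.831, and Tekt4 lies below the brightness limit.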

How the results depend on the processing

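Crocc in high against medium kept its sign in all 41 alternatives that gave it a value, with differences from -0.66 to -0.32, and its call in 14 of 25 fits without 1 array. The count of members past the threshold in that comparison was 1, and it ran from 0 to 1 when 1 array was left out. It was 0 with no filter (adjusted p for Crocc 0.0563), with a stricter brightness filter, where Crocc was not tested, with median centring (0.157), with no normalisation (0.620), with all 41 arrays (0.0944), with the choroid plexus mean as a covariate (0.0505), with the spike-in pattern as a block (0.0754), in the largest spike-in pattern alone (0.312), in the pattern of 10 arrays alone (0.956), which holds 1 high mouse and could hardly give a call, and with the 2 groups alone (0.0888). The F test called 1 member, Crocc, with array weights, and 0 otherwise. Replicate numbers do not pair mice: deviations of same-numbered arrays correlated from -0.17 to 0.14. With the replicate number as a block (replicate block) the count was 0 and Crocc differed by -0.42 at an adjusted p of 0.101, and in the other 2 contrasts the block changed no call. The members' median differences were -0.161, -0.241 and 0.0715 in high minus low, high minus medium and medium minus low with no normalisation, where those of all probe sets were -0.06, -0.17 and 0.11, and high minus low was 0.0782 in the pattern of 10 arrays, which rests on 1 high and 2 low mice and was chosen after seeing the data. The cause of these changes was not tested. With no normalisation Foxj1 and Ttr correlated at 0.679, and the 4 correlations with Gfap were 0.46 to 0.75, where the brightness of each array enters both genes. Signal near the background limits the 32 members below the filter.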
